A study of Mus musculus with 30 samples.

Results

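The cytosolic ribosomal protein genes encode the proteins of the 60S and 40S subunits. They were taken from the RNA-seq table by symbol, as the Rpl and Rps genes with their numbered and letter-marked forms together with Rpsa, Rplp0, Rplp1 and Rplp2. The rule found 84 of the 22477 genes, 51 of the large and 33 of the small subunit, and left out 17 entries whose symbols mark them as pseudogenes. The symbols alone chose the members, and no measured value was used.

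The RNA came from mouse secondary iPSCs, pluripotent cells made by reprogramming. They carry transgenes for the factors Oct4, Sox2, Klf4 and cMyc (together OSKM) that doxycycline (dox) switches on, a GFP reporter in 1 Nanog allele and a constitutive nuclear RFP. All 15 conditions share these alleles, and whether the line is a single clone is not given in the sources used here. In 7 conditions the cells were taken at 0, 24, 36, 48, 60, 72 and 96 h after 2i/LIF, the inhibitors and cytokine that hold them in the naive state, was replaced by N2B27 medium. In the other 8, cells withdrawn for 0, 24, 48 or 96 h were re-seeded in serum/LIF without dox (-dox) or with dox (+dox) to induce OSKM, and RNA was taken after 48 h. Each condition had 2 samples of polyadenylated RNA, 30 in all, but the deposited table holds 1 value per gene and condition, in FPKM (fragments scaled to transcript length and library size), made by the authors from both samples. No value therefore has a spread, no difference was tested, and the depth is unknown. A change is given as a plain ratio of 2 values or its log2.

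Over all genes, the summed FPKM ran from 603278 at 72 h to 832607 in 48 h +dox, and 2756 to 5090 genes had a value of 0. The 8 pluripotency markers summed to 1363 FPKM in the 0 h cells and 392.1 FPKM in those of 96 h, and after re-seeding to between 170.0 FPKM (96 h -dox) and 1402 FPKM (0 h -dox). The sum hides markers that went opposite ways. From 0 h to 96 h Pou5f1, the gene of Oct4, went from 199.3 to 25.5 FPKM and Nanog from 227.1 to 14.5 FPKM, while Lin28a, an RNA-binding protein also made after the naive state, went from 30.6 to 188.1 FPKM. In 96 h -dox the defining markers were nearly absent, with Pou5f1 at 2.63 and Nanog at 2.13 FPKM, and Lin28a (67.9 FPKM) and Sall4 (59.9 FPKM) made up most of the sum. With +dox the readings of Pou5f1 and Sox2, both among the markers summed, may include transgene reads. The cells were maintained on mouse embryonic fibroblasts, and the 11 fibroblast markers summed to 832.5 FPKM at 0 h against 22.9 to 78.4 FPKM at the later timepoints. After re-seeding they summed to between 8.0 FPKM (0 h -dox) and 156.5 FPKM (96 h -dox). Lum, a connective tissue proteoglycan on that list, was listed at 0 in 0 h -dox and 48 h +dox. In such bulk samples fewer cells of a type and less RNA per cell cannot be told apart.

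A ribosome contains a single copy of most of these proteins, so cells make them in near equal numbers, from genes scattered over the genome. Their mRNAs are short, very abundant, and mostly begin with a run of pyrimidines, the terminal oligopyrimidine (TOP) motif, through which mTOR signalling and the RNA-binding protein Larp1 control their translation. Myc raises the transcription of ribosomal protein and ribosome assembly genes in many proliferating cells, and Myc is one of the OSKM factors. A few of the proteins have paralogs, such as Rpl10l and Rpl39l, which are best known from male germ cells, where they stand in for proteins encoded on the silenced X chromosome.

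The sequence around the start of the mRNA is shown for 7 members, from 15 bases before to 15 after the RefSeq start on GRCm38.p6. The longest run of C and T near the start is in capitals, and those of Rpl4 and Rpl10l lie wholly before the start. Rps27 and Rps26 had the highest levels, Rpl4 and Rpl13a have long runs, Rps6 and Rps2 left the common pattern in some comparisons, and Rpl10l was the member that differed most between conditions.
Rps27 (chr3:90213634-90213663, minus strand): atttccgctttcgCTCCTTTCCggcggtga
Rps26 (chr10:128626492-128626521, minus strand): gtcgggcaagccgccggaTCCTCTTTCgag
Rpl4 (chr9:64173372-64173401, plus strand): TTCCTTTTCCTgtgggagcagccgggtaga
Rpl13a (chr7:45128731-45128760, minus strand): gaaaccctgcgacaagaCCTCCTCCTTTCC
Rps6 (chr4:86857353-86857382, minus strand): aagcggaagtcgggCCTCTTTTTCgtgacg
Rps2 (chr17:24720048-24720077, plus strand): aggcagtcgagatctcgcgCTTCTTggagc
Rpl10l (chr12:66284387-66284416, minus strand): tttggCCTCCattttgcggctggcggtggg
RefSeq promoters, 250 bases before to 50 after each start, were given for 63 of the 84 members. A pyrimidine run of 8 or more bases within 20 bases of the start stood in 30 of the 63 (47.6%), against 20.8% of all 27025 promoters. The ETS core CCGGAAG, searched on both strands, stood in 25 (39.7%, against 9.12% of all), the YY1 core AAGATGG in 9 (14.3%, against 6.48%) and TATAAA in 6 (9.52%, against 14.2%). The members held a median of 17 CpG dinucleotides in the 250 bases before the start, against 6 over all promoters. These matches describe letters in a window and do not locate bound sites.

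The members were among the most abundant mRNAs of these cells. In all 15 conditions 79 members stood at 100 FPKM or more and 59 at 1000 FPKM or more, and every member except Rpl3l, a paralog of Rpl3 known from muscle, reached 10 FPKM. The 3 highest by mean level were Rps27 (7809 FPKM), Rps26 (7161 FPKM) and Rps28 (6944 FPKM), all of the small subunit. The 3 lowest were Rpl3l (1.18 FPKM), Rpl10l (62.1 FPKM) and Rpl7l1 (71.4 FPKM), which are paralogs of other members. FPKM is a level per length, but the fragments were 200 to 600 bases long while the members' coding lengths ran from 138 to 1257 bases with a median of 468, against 1320 for the other genes at 10 FPKM or more. Across the 77 members that are not paralogs, the mean level had a Spearman correlation of -0.51 with the coding length, a description over genes measured in the same libraries. How much of the order of levels comes from length was not tested.

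Many of these genes have processed copies elsewhere in the genome. Of the 50-base windows of a member's transcripts in Gencode M21, a median of 45.1% also occurred in transcripts of other annotated genes, and 36 members shared at least 50% of their windows (as for Rps27, with 98.6%). The levels of members with many shared windows are uncertain, since the way such reads were split is not known. No window was shared between any of the 7 paralogs and its partner. The members lie on 19 chromosomes, with 14 on chromosome 7 and 4 on X (Rpl10, Rpl36a, Rpl39 and Rps4x), 30 of them host 58 small nucleolar RNA genes on their strand, and 24 overlap a gene on the other strand, whose reads may be mixed in because a strand setting is not given in the sources used here.

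Together the 84 genes held between 26.8% and 37.8% of all summed FPKM. Their share was 33.7% (0 h), 27.5% (24 h), 29.0% (36 h), 30.5% (48 h), 28.9% (60 h), 26.8% (72 h) and 28.0% (96 h). The share was thus highest before withdrawal, lower at 24 h, partly back at 48 h, and lowest at 72 h. After re-seeding -dox it was 30.0% for cells withdrawn for 0 h, 28.8% for 24 h, 33.3% for 48 h and 27.9% for 96 h. With +dox it was 32.5%, 31.1%, 37.8% and 35.1% for the same starts, above -dox at each of the 4. The 60S genes held 13.8% to 19.2% and the 40S genes 13.0% to 18.6%, and both moved in the same direction as the total in each +dox and -dox pair.

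**Figure D1:**
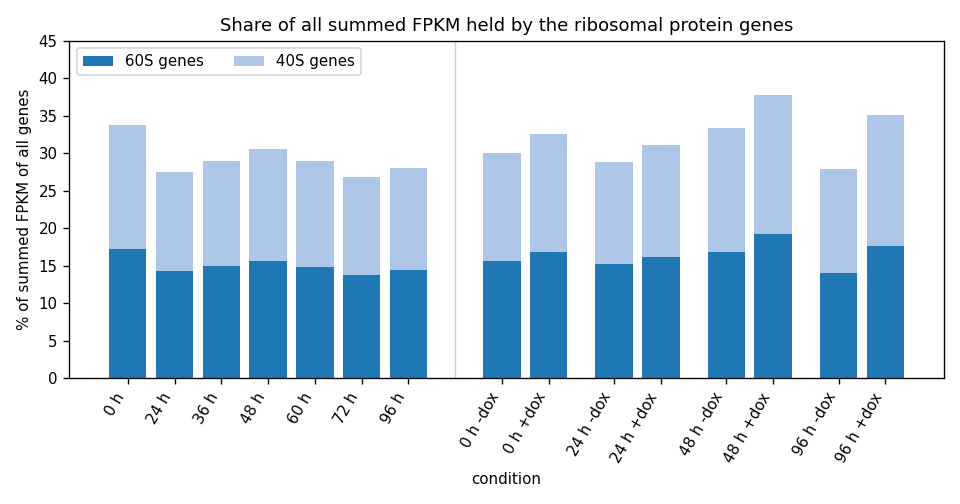
Percent of the summed FPKM of all genes held by the 51 60S genes (dark) and the 33 40S genes (light), 1 bar for each of the 15 conditions, time course on the left and re-seeded cells on the right. The total is highest in 48 h +dox (37.8%) and lowest at 72 h (26.8%), and each +dox bar is above its -dox bar.

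**Figure D2:**
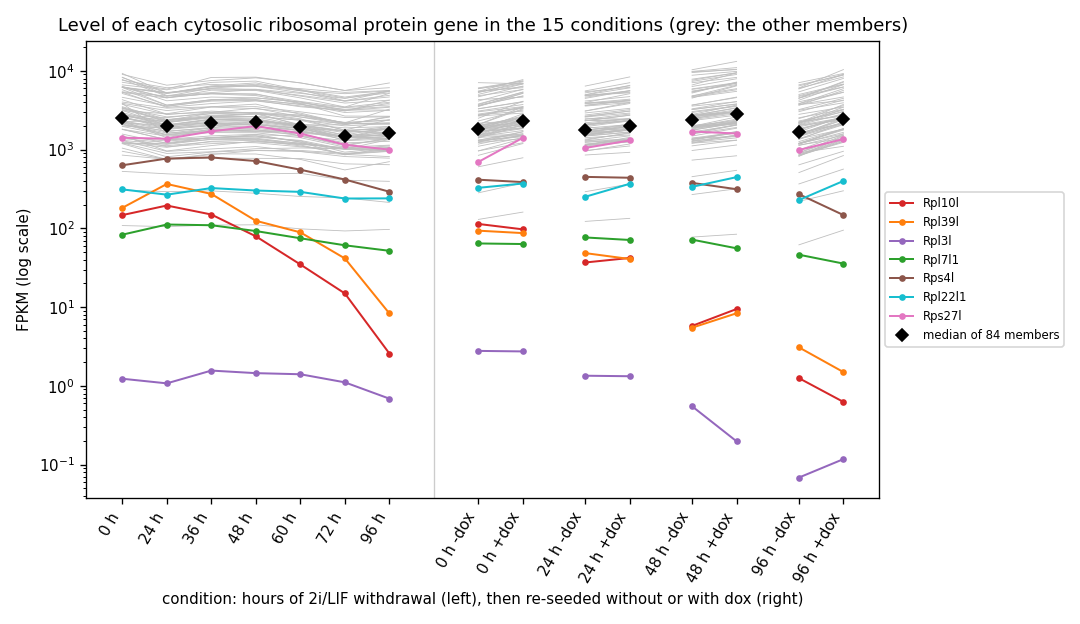
FPKM of each of the 84 members on a log axis in the 15 conditions, 1 line for each gene, with the 7 paralogs in colour, the other members in grey and the median of all members as black diamonds. The median lies between 1475 and 2796 FPKM, with members spread widely around it. Most members change modestly between conditions, while Rpl10l and Rpl39l fall far below their 0 h levels late in the time course.

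The time course asks how the cells' expression changes as they leave the naive state. The median member stood at 2542 FPKM (0 h), 1967 (24 h), 2200 (36 h), 2265 (48 h), 1925 (60 h), 1475 (72 h) and 1635 (96 h). The members were lower at 24 h, nearer to the start at 36 and 48 h, and lowest at 72 h. Of the 84 members, 59 were highest of the 7 timepoints at 0 h, and 57 were lowest at 72 h and 20 at 96 h. The share of all genes with these extremes was not counted, and the summed FPKM of all genes was itself lowest at 72 h (603278). With the conditions set to equal summed FPKM, 51 members were highest at 0 h. The lowest point was then split, with 24 members at 24 h, 25 members at 72 h and 27 members lowest at 96 h. The difference was modest for most of them, with a median of 1.66-fold between a member's highest and lowest timepoint, and 13 members reached 2-fold (15.5%, against 60.7% of all genes that reach 1 FPKM in the time course).

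At 24 h the median log2 ratio to 0 h was -0.36 over the 83 members that reach 10 FPKM, a ratio of 0.777, against 0.04 over 8969 other genes at that level. At least 20% lower were 44 members, beside 33.5% of all genes at 1 FPKM or more, and at least 25% higher, the same fold upward, were 3, beside 30.1%. On the scale of equal summed FPKM, 27 members were lower (32.1%), beside 28.3% of all genes. At 36 h the median was -0.20, with 21 lower (34.8% of all genes) and 4 higher (32.4%), and at 48 h it was -0.17, with 15 lower (35.1%) and 1 higher (32.0%). The share of members past that fold at 36 and 48 h was therefore not above the share of all genes, although 60 and 64 of the 83 were below 0 on the log2 scale. Among the lowest at 24 h was Rps2, whose protein lies near the entry of the mRNA channel of the 40S subunit.

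Rps2 stood at 3851 FPKM (0 h), 1598 (24 h), 1886 (36 h), 2318 (48 h), 2056 (60 h), 2068 (72 h) and 2640 (96 h). It was lowest at 24 h, with a log2 ratio of -1.27, and came part of the way back by 96 h (-0.54), unlike the median member. Rps2 shared 76.8% of its windows with other annotated genes and overlaps 2 genes on the other strand. Next lowest at 24 h were Rps28 (-0.83), a small subunit protein, and Rps29 (-0.77), a zinc-binding one. Above 0 at 24 h stood Rpl39l (1.01), Rpl7l1 (0.43), Rpl10l (0.40) and Rps4l (0.28), all of them paralogs, and Rpl7a (0.04).

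At 60 h the median log2 ratio to 0 h was -0.36, with 47 members at least 20% lower (34.3% of all genes) and 0 higher (30.8%). The 60 h median was -0.16 with equal summed FPKM, against 0.18 over the other genes on that scale. There 22 members were lower (26.2%, beside 27.1% of all genes), so the share of members was then not above that of all genes. At 72 h the median was -0.63, a ratio of 0.646, with 77 of the 84 lower (35.6%) and 0 higher (32.2%), against a median of -0.05 over the other genes. At 96 h it was -0.55, with 70 lower (35.3%) and 0 higher (33.8%), and all 83 members in the median were below 0, as at 72 h. On the scale of equal sums 36 members were at least 20% lower at 72 h (42.9%, beside 22.3% of all genes) and 34 were at 96 h (40.5%, beside 25.3%), and 70 and 74 of the 83 were below 0. A 2-fold lower level at 72 h was seen in 9 members, beside 15.9% of all genes. Besides Rpl10l and Rpl39l these were Rpl13a, known from its release from the ribosome in inflamed cells, Rpl27, Rpl30, Rpl7, Rps19, the gene most often mutated in Diamond-Blackfan anaemia, Rps20 and Rps29. At 96 h the number was 4, beside 16.4% of all genes. It was 2 with equal summed FPKM at both timepoints, beside 11.4% (72 h) and 13.4% (96 h) of all genes.

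Rpl13a was the member other than a paralog with the lowest log2 ratio at 96 h (-1.03). It stood at 5421 FPKM (0 h), 4791 (24 h), 5091 (36 h), 4864 (48 h), 3835 (60 h), 2670 (72 h) and 2655 (96 h). Its level thus lay below that of 0 h mainly after 48 h. Rps27, which has a zinc finger, stood at 7168, 5870, 8254, 8323, 7033, 5632 and 6115 FPKM at the same 7 timepoints, above its 0 h level at 36 and 48 h. The highest log2 ratios at 96 h were those of Rpl28 (-0.04, but 0.23 with equal summed FPKM), Rpl11 (-0.11, and 0.15), which binds the p53 regulator Mdm2 when ribosome assembly is blocked, and Rps15 (-0.15, and 0.11).

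The proteins of the stalk, Rplp0, Rplp1 and Rplp2, recruit the translation factors that split GTP. Rplp0 stood at 952.8, 750.1, 866.4, 974.7, 946.5, 817.0 and 779.5 FPKM at the 7 timepoints and had the highest log2 ratio of the 83 members at 72 h (-0.22, but 0.16 with equal summed FPKM). Rplp1 ran from 4767 FPKM at 24 h to 7769 (0 h), and Rplp2 from 3255 at 72 h to 6161 (0 h), with 72 h log2 ratios of -0.54 and -0.92. The 3 stalk genes thus kept unequal proportions through the time course. Rpsa, a 40S protein also described as a laminin receptor, was lowest at 24 h (811.4 FPKM) and highest at 0 h (1191 FPKM).

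**Figure D3:**
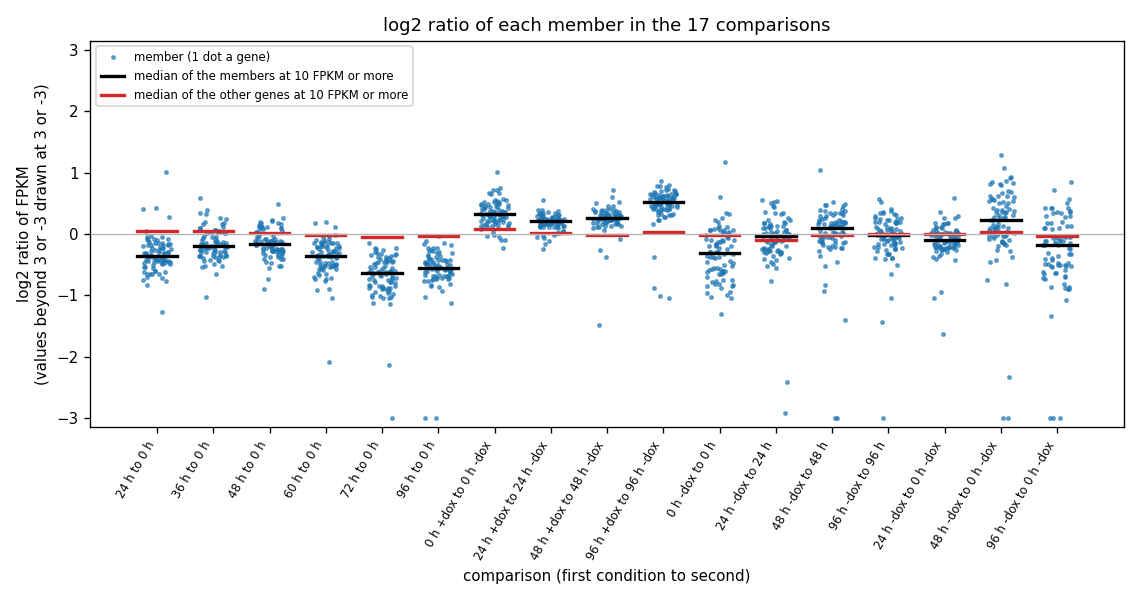
The log2 ratio of FPKM of every member in the 17 comparisons (1 dot a gene), with the median of the members that reach 10 FPKM in black and that of the other genes in red. The black line lies below the red one at all 6 later timepoints and above it in all 4 pairs of +dox to -dox.

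Several values moved with these differences. The fibroblast marker sum was 832.5 FPKM in the 0 h cells, the reference of the whole time course, and 78.4 FPKM or less after it. At 24 h 10 of the 11 markers were at least 2-fold lower, while Thy1 was higher (log2 ratio 1.01). The part of this sum in the ratios was not tested. At 72 h the 482 other genes that stood at 100 FPKM or more everywhere had a median log2 ratio of -0.30, and the 181 other genes with coding lengths under 300 bases one of -0.36, but at 24 h these were 0.07 and 0.13. The 27 members with coding lengths under 400 bases had a median of -0.80 at 72 h and the 26 members of 600 bases or more one of -0.52. With equal summed FPKM, the 24 h, 72 h and 96 h medians were -0.24, -0.25 and -0.28, so the direction stayed and the size did not. The medians of the other genes were then 0.16, 0.33 and 0.24. This scaling shifts all genes of a condition alike, so the gap between members and other genes stayed the same by construction. The members themselves make up 26.8% to 37.8% of that sum, so this scaling takes out part of their own change by construction.

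The genes that make and regulate ribosomes followed another course in the first days. Of 48 ribosome biogenesis genes, which process and assemble ribosomal RNA and subunits, 41 were at least 25% higher at 24 h and 0 at least 20% lower, with a median log2 ratio of 0.60 led by Nifk (1.13), while the members' median was -0.36. Of 14 genes of the RNA polymerase I machinery, which transcribes ribosomal RNA, 12 were higher (median 0.58). Of the 77 mitochondrial ribosomal protein genes, 33 were higher and 0 lower (median 0.25). Over all genes at 1 FPKM or more, 30.1% were higher and 33.5% lower at 24 h. By 96 h the biogenesis genes had 1 higher and 24 lower (median -0.31), and the mitochondrial ones 7 higher and 29 lower (median -0.22). Of all genes, 33.8% were higher and 35.3% lower at 96 h. With equal summed FPKM the 24 h medians of the 3 lists stayed above 0 (0.72, 0.70 and 0.38), while at 96 h that of the biogenesis genes was -0.05 and that of the mitochondrial ones turned to 0.05.

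Genes whose mRNAs share the TOP start, mostly translation factors, were nearer to the members at 24 h than the biogenesis genes were, but not at 96 h. Of 19 such genes, 1 was higher and 4 were lower at 24 h (median log2 ratio -0.07), beside 30.1% and 33.5% of all genes. At 96 h 0 were higher and 7 lower (median -0.22), beside 33.8% and 35.3%. Both signs of the medians turned with equal summed FPKM (0.05 and 0.05). Eef1a1, the elongation factor that brings aminoacyl-tRNA, stood at 7191 FPKM (0 h), 5170 (24 h) and 5230 (96 h). Among 4 ribosomal protein genes that the symbol rule does not take, Gnb2l1, the 40S scaffold protein also called RACK1, was lowest (log2 ratio -0.64 at 24 h, -1.28 at 72 h). Myc stood at 2.5 FPKM (0 h), 40.7 (24 h) and 7.7 (96 h), and Mycn at 33.1, 94.4 and 20.5 FPKM, so both were highest of these at 24 h. Of the 15 genes of the mTOR pathway 3 were higher and 2 lower at 24 h, and Larp1 stood at 48.9 FPKM (0 h), 66.6 (24 h) and 86.5 (96 h).

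The 2 members that left the common course furthest were Rpl10l and Rpl39l. Rpl10l is an intronless gene at chr12:66283379-66284401 and its partner Rpl10 lies at chrX:74270812-74273135 (mm10, Gencode M21). Their coding sequences have the same length of 642 bases, of which 98 differ (84.7% identical). Rpl39l lies at chr16:10170226-10174911 and Rpl39 at chrX:37082520-37085402. Their coding sequences, from Gencode M21 transcripts without the stop codon, are shown to let the pair be told apart, with the 23 of 153 bases that differ in capitals.
Rpl39l: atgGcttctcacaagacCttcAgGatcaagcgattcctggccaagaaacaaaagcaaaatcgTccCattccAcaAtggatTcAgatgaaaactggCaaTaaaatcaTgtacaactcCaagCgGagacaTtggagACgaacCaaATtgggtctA
Rpl39: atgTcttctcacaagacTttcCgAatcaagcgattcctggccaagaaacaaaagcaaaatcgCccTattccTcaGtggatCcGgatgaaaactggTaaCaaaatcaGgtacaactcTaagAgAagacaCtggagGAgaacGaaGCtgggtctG

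Rpl10l stood at 147.5 FPKM (0 h), 195.1 (24 h), 150.1 (36 h), 79.3 (48 h), 34.8 (60 h), 14.9 (72 h) and 2.58 (96 h). Rpl39l stood at 182.3, 366.4, 273.9, 124.9, 89.0, 41.5 and 8.32 FPKM at the same timepoints. Both were highest at 24 h and lower at each timepoint from then on, and the 96 h log2 ratios to 0 h were -5.84 and -4.45, the lowest of the 83 members. The partners stayed within a narrow range, Rpl10 between 969.4 FPKM (96 h) and 1257 FPKM (36 h) and Rpl39 between 1414 FPKM (24 h) and 2334 FPKM (0 h). Rpl39l thus stood at its highest when Rpl39 stood at its lowest of the 7 timepoints, but remained below it in FPKM at each.

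After re-seeding, both paralogs stood lower the longer the cells had been withdrawn. Rpl10l stood at 113.8 FPKM -dox and 97.2 +dox for cells from 0 h, 36.9 and 42.1 from 24 h, 5.77 and 9.47 from 48 h, and 1.255 and 0.626 from 96 h. Rpl39l stood at 93.5 and 87.1, 48.5 and 40.8, 5.48 and 8.36, and 3.09 and 1.498 FPKM in the same order. Cells re-seeded from 48 h held far less of both than the 48 h cells themselves, with log2 ratios of -3.78 and -4.51 -dox. Their levels with +dox from 48 and 96 h were thus far below those at 0 h. Parts of the RefSeq promoter windows of the second pair are shown because the ETS core, in capitals, stood in the 100 bases before the start of Rpl39l. Rpl39 holds it elsewhere in its window.
Rpl39l (chr16:10170128-10170227, plus strand, GRCm38.p6): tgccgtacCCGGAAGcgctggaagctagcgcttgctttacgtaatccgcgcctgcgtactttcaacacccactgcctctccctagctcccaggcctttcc
Rpl39 (chrX:37085223-37085322, minus strand, GRCm38.p6): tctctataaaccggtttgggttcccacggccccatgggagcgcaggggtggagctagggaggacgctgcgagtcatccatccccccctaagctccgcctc
In the 250 bases before the start, Rpl10l held 8 CpG dinucleotides, Rpl10 13, Rpl39l 12 and Rpl39 12, all below the members' median of 17.

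**Figure D4:**
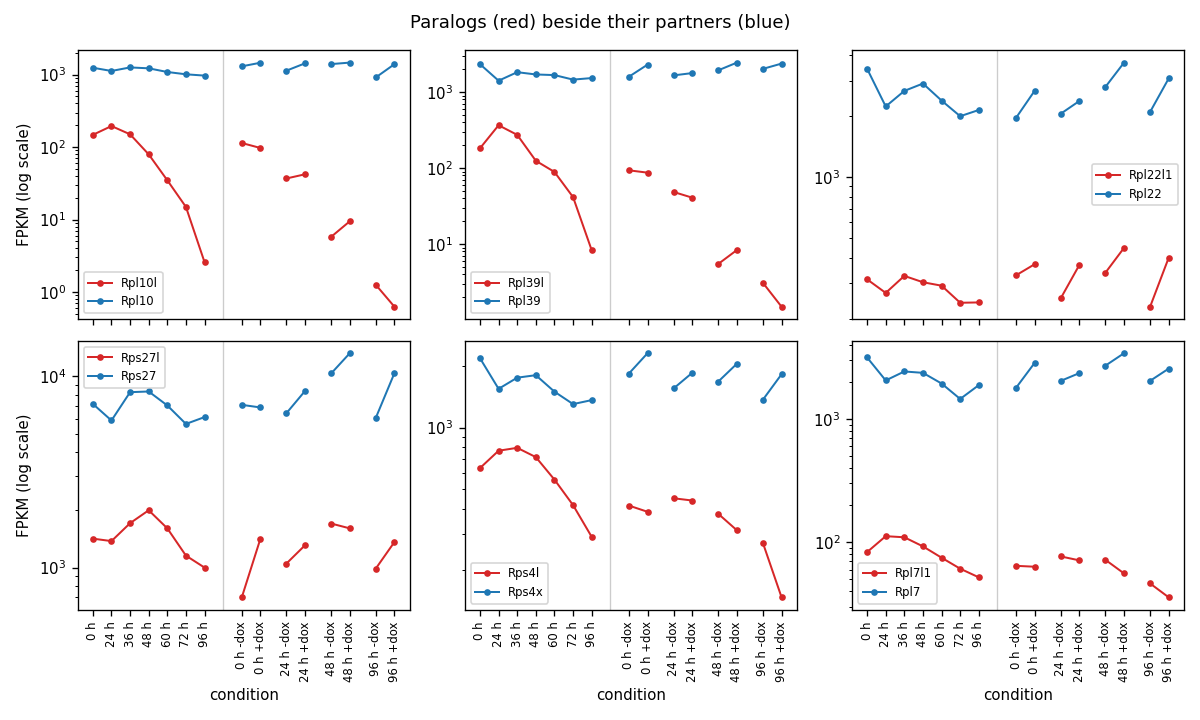
FPKM on a log axis of 6 paralogs (red) and their partners (blue) in the 15 conditions, time course left and re-seeded cells right of the grey line. Rpl10l and Rpl39l go from 147.5 and 182.3 FPKM at 0 h to 2.58 and 8.32 FPKM at 96 h. Rpl10 and Rpl39 stay at 915.6 FPKM or more in all 15 conditions, and the other pairs keep steadier distances.

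The other paralogs changed less. Rps4l, annotated in Gencode M21 as a transcribed processed pseudogene at chr6:148354656-148355598, stood at 633.2 FPKM (0 h), 770.0 (24 h), 795.6 (36 h), 716.6 (48 h), 556.2 (60 h), 417.3 (72 h) and 292.0 (96 h). Rpl7l1 stood at 83.2, 112.0, 109.7, 92.5, 74.9, 61.0 and 51.9 FPKM in that order. Both peaked at 24 or 36 h, when most members were below their 0 h level. Their partners Rps4x and Rpl7 were highest at 0 h (2183 and 3145 FPKM) and lowest at 72 h (1302 and 1450 FPKM).

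Rps27l, a target of p53, stood at 1416, 1375, 1706, 1993, 1603, 1154 and 999.6 FPKM, with its peak at 48 h like its partner Rps27. Rpl22l1 ran from 239.5 FPKM at 72 h to 325.2 (36 h), and its partner Rpl22 from 2001 at 72 h to 3433 (0 h). Rpl3l stood between 0.689 and 1.56 FPKM, near the minimum of 1 FPKM, while Rpl3 stood between 894.8 and 1215 FPKM. The level of Rpl3l is too low for its ratios to be read.

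Re-seeding without dox sets 0 h -dox, in serum/LIF, against 0 h, in 2i/LIF, for cells that were never withdrawn. These conditions also differ in re-seeding, in 48 h more of culture and possibly in feeders, which cannot be told apart from the medium. The median member was lower in 0 h -dox (log2 ratio -0.30, a ratio of 0.811), against -0.02 over the other genes. Of the 84 members, 41 were at least 20% lower (31.3% of all genes) and 4 at least 25% higher (31.9%). Set to equal summed FPKM, 27 were lower (32.1%, beside 20.6% of all genes on that scale) and 10 higher (11.9%, beside 44.5%). The members were split widely, from Rpl27 (-1.31), Rps19 (-1.05), Rps27l (-1.02) and Rpl30 (-0.998) to Rps6 (0.60), the substrate of the S6 kinases, Rpsa (0.35) and Rpl3 (0.32). Rps6 stood at 851.8 FPKM (0 h) and 1293 in 0 h -dox, and Rpl27 at 3760 and 1519 FPKM. Rpl27 was thus highest of all 15 conditions at 0 h and lowest in 0 h -dox.

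This split moved with the length of the genes. The Spearman correlation of the log2 ratio with the coding length was 0.48 across 82 members, as a description over genes of the same libraries. Members under 400 bases had a median of -0.60 and those of 600 bases or more one of -0.18, and other genes under 300 bases had -0.43. Cells from 24 h showed the same sign (0.46 for 24 h -dox to 24 h). In 48 h -dox to 48 h and 96 h -dox to 96 h the correlations were -0.10 and -0.36. With equal summed FPKM the median of 0 h -dox to 0 h was -0.06, against 0.22 over the other genes on that scale. The fibroblast marker sum was 832.5 FPKM (0 h) and 8.0 FPKM in 0 h -dox, and neither its part nor that of length was tested.

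For cells withdrawn longer, the median members of -dox cells stayed near those of the timepoint they came from. The median log2 ratio was -0.04 for 24 h, with 10 members at least 25% higher (31.5% of all genes) and 11 at least 20% lower (34.7%), and its sign turned with equal summed FPKM (0.11) and with median-ratio factors (0.02). It was 0.11 for 48 h, with 14 higher (33.6%) and 8 lower (33.6%), and -0.01 for 96 h, with 8 higher (33.1%) and 11 lower (32.2%), where median-ratio factors turned the sign (0.01). The shares of members were below those of all genes in all 6 counts. Rps2 stood out at 48 h, with 4766 FPKM -dox against 2318 at 48 h (log2 ratio 1.04).

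Among the -dox cells themselves, those from 48 h had the highest median (2376 FPKM, against 1839 from 0 h, 1759 from 24 h and 1655 from 96 h). Relative to 0 h -dox, the median log2 ratio was -0.10 for 24 h, with 2 members at least 25% higher (27.2%) and 7 at least 20% lower (31.9%). It was 0.23 for 48 h, with 35 higher (34.7%) and 8 lower (36.7%). With equal summed FPKM it was 0.0031, against -0.20 over the other genes. On that scale 19 members were higher (22.6%, beside 26.3% of all genes) and 18 lower (21.4%, beside 46.7%). For 96 h the median as deposited was -0.18, with 13 higher (39.0%) and 36 lower (39.5%). Rps6 stood at 1293 FPKM from 0 h, 959.3 from 24 h, 736.1 from 48 h and 511.1 from 96 h, the reverse of Rps19, which stood at 2082, 2365, 3691 and 3737 FPKM. Rpl29, a small basic protein, stood at 130.0, 122.7, 77.6 and 61.8 FPKM, and Rps15a at 1404, 1715, 2959 and 2313 FPKM.

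**Figure D5:**
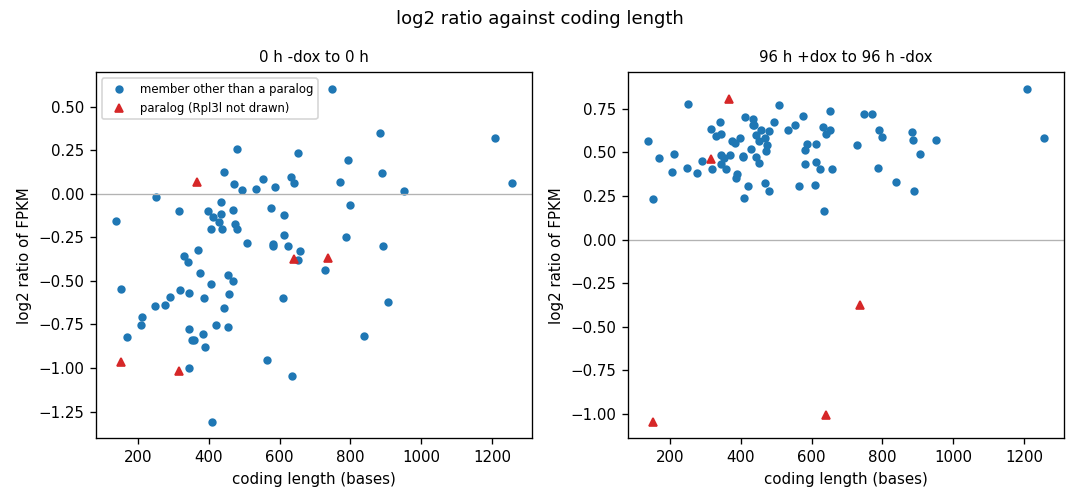
The log2 ratio of each member against its coding length in bases, for 0 h -dox to 0 h (left) and 96 h +dox to 96 h -dox (right), with paralogs as red triangles and Rpl3l and Rps4l left out. Short members lie lower on the left (Spearman 0.48 over 82 members), while on the right nearly all members lie above 0 whatever their length (Spearman 0.15).

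The pairs of +dox to -dox ask what OSKM does to cells at each stage of withdrawal. The median member was higher with +dox at all 4 starts. The median log2 ratio was 0.33 for cells from 0 h (a ratio of 1.257), 0.21 from 24 h (1.155), 0.27 from 48 h (1.203) and 0.52 from 96 h (1.431), against 0.08, 0.02, -0.02 and 0.03 over the other genes. Of the 84 members, 74 were higher with +dox at all 4 starts, beside 16.6% of all genes at 1 FPKM or more in each pair, and 2, Rpl7l1 and Rps4l, were lower at all 4, beside 13.3%. With equal summed FPKM the medians were 0.10, 0.10, 0.17 and 0.34, all above 0, against -0.15, -0.09, -0.12 and -0.15 over the other genes. On that scale 49 members were higher at all 4 starts (beside 7.07% of all genes) and the same 2 lower (beside 26.5%).

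At least 25% higher with +dox were 43 members from 0 h (25.9% of all genes), 10 from 24 h (20.7%), 22 from 48 h (24.0%) and 71 from 96 h (27.0%). At least 20% lower were 0 from 0 h (23.4%), 0 from 24 h (17.8%), 1 from 48 h (24.8%) and 4 from 96 h (30.1%). At equal summed FPKM, 9 members were at least 25% higher from 0 h (10.7%, beside 12.8% of all genes on that scale). From 24 h 1 was (1.19%, beside 14.5%), from 48 h 6 were (7.23%, beside 19.4%) and from 96 h 44 were (53.0%, beside 18.6%). The share of members past that fold was thus above that of all genes on both scales only from 96 h, and from 0 h and, by little, from 48 h only as deposited. The 96 h cells showed the widest gap, with a median member at 1655 FPKM -dox and 2452 +dox. Of all 15 conditions, 53 members were highest in 48 h +dox (30 with equal summed FPKM), 15 in 0 h +dox and 6 in the 0 h cells. The summed FPKM of all genes was itself highest in 48 h +dox (832607), but that sum includes the members. The sum of the other genes was 518284 FPKM there and was highest at 36 h (559049 FPKM). The share of all genes highest in 48 h +dox was not counted.

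In cells from 96 h the largest log2 ratios were those of Rpl3 (0.86), Rpl22l1 (0.81) and Rps27 (0.78). Rpl3, which lies near the peptidyl transferase centre, stood at 820.0 FPKM -dox and 1491 +dox from 96 h, at 1348 and 1673 from 48 h, at 1317 and 1330 from 24 h, and at 1519 and 1551 from 0 h. It was lowest of all 15 conditions in 96 h -dox. Rps27 stood at 6067 and 10389 FPKM from 96 h, 10338 and 13192 from 48 h, 6415 and 8383 from 24 h, and 7086 and 6867 from 0 h, and 13192 FPKM was the highest value of any member. Rps6 stood at 511.1 and 840.8 FPKM from 96 h, against 1293 and 1500 from 0 h.

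From 96 h the smallest log2 ratios were those of Rpl39l (-1.04), Rpl10l (-1.004) and Rps4l (-0.88), followed by Rpl7l1 (-0.37), so that all 4 members that were at least 20% lower were paralogs. Rps4l stood at 272.0 FPKM -dox and 147.7 +dox from 96 h, 378.3 and 314.4 from 48 h, 450.8 and 439.5 from 24 h, and 415.1 and 387.1 from 0 h. Rpl7l1 stood at 46.3 and 35.7, 72.0 and 55.8, 76.7 and 71.3, and 64.4 and 63.3 FPKM in that order. Their partners Rps4x and Rpl7 stood higher with +dox from every start, with log2 ratios of 0.41 and 0.33 from 96 h. Among the paralogs Rps27l and Rpl22l1 stood higher with +dox from 96 h, Rps27l at 988.8 and 1361 FPKM. Rpl22l1 was higher from every start, at 228.9 and 400.1 FPKM from 96 h, 337.2 and 447.4 from 48 h, 252.0 and 368.3 from 24 h, and 327.4 and 371.4 from 0 h.

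In cells from 0 h the largest log2 ratios were those of Rps27l (1.02), Rps19 (0.74), Rpl27 (0.72) and Rps2 (0.71), and the smallest those of Rpl10l (-0.23), Rpl39l (-0.10) and Rps4l (-0.10). Rps27l stood at 698.7 FPKM -dox and 1415 +dox, which was close to the 1416 FPKM of the 0 h cells. Rps27l, Rps19 and Rpl27 were also the 3 lowest in 0 h -dox to 0 h, and both ratios share the 0 h -dox value. From 24 h the largest were Rpl22l1 (0.55), Rplp1 (0.40) and Rps27 (0.39), and the smallest Rpl39l (-0.25), Rpl27 (-0.16) and Rpl7l1 (-0.11). From 48 h the largest were Rpl10l (0.71) and Rpl39l (0.61), both below 10 FPKM there, then Rpl13a (0.52) and Rpl28 (0.51), and the smallest Rpl7l1 (-0.37), Rps4l (-0.27) and Rps27l (-0.08).

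Rpl13a stood at 4514 FPKM -dox and 6457 +dox from 48 h, and Rpl28 at 6626 and 9418 FPKM. The stalk genes went with the majority, with Rplp1 at 4507 FPKM -dox and 7191 +dox from 96 h, Rplp2 at 3822 and 5340, and Rplp0 at 641.9 and 953.6. Rpsa stood at 832.4 and 1277 FPKM from 96 h. Their log2 ratios from 96 h lay between 0.48 (Rplp2) and 0.67 (Rplp1), around the median of 0.52.

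Other genes of the translation machinery were mixed with +dox from 96 h. Of the 19 TOP mRNA genes 13 were at least 25% higher and 1 at least 20% lower, with a median log2 ratio of 0.45, led by Npm1 (0.70), a nucleolar chaperone, and with Vim (-1.51), a mesenchymal filament protein, at the other end. Of the 48 ribosome biogenesis genes 20 were higher and 0 lower (median 0.24, and 0.06 with equal summed FPKM). Of the 77 mitochondrial ribosomal protein genes 23 were higher and 9 lower (median 0.15, but -0.03 with equal summed FPKM). Of the 14 RNA polymerase I genes 4 were higher and 3 lower (median 0.09, but -0.09). Beside these counts, 27.0% of all genes were higher and 30.1% lower. From 48 h the biogenesis genes had a median of -0.06, with 2 higher (24.0% of all genes) and 4 lower (24.8%). The members' median from that start was 0.27. Myc was lower with +dox from 0, 24, 48 and 96 h, at 24.5 FPKM -dox and 18.7 +dox, 44.3 and 22.4, 35.9 and 18.7, and 57.6 and 36.1, a reading that may include transgene reads.

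Markers and lengths also differed in these pairs. In cells from 96 h the fibroblast marker sum was 156.5 FPKM -dox and 27.7 +dox, with 6 of the 8 markers measured there at least 2-fold lower, and the pluripotency sum 170.0 and 221.5 FPKM, and their part was not tested. Other genes with coding lengths under 300 bases had a median log2 ratio of 0.47 from 0 h and 0.15 from 24 h, but -0.05 from 48 h and -0.02 from 96 h. The members' medians at these starts were 0.33, 0.21, 0.27 and 0.52, and the part of length was not tested. The Spearman correlation of the members' ratios with coding length lay between -0.14 and 0.15 in the 4 pairs.

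As deposited, most members followed the profile of the median member over the 15 conditions, a profile that each member helps to form. Pearson's r of a member's log2 FPKM with that of the median member, as a description over 15 conditions that share their scaling within each library, had a median of 0.847, and 54 members were at 0.8 or more. The closest were Rpl35a (0.979), Rps18 (0.966) and Rps12 (0.958). The 9 members under 0.5 were 5 of the 7 paralogs, with Rpl3l (-0.11), Rpl39l (-0.02) and Rps4l (0.01) lowest, and Rpl29, Rpl37a, Rps3a1 and Rps6. Rpl29 ran from 61.8 FPKM (96 h -dox) to 161.0 (0 h +dox) and Rps6 from 511.1 (96 h -dox) to 1500 (0 h +dox), and both were thus highest and lowest in the same conditions. The median r was 0.624 with equal summed FPKM.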

How the data were processed

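RNA-seq was performed by the authors on polyadenylated RNA, fragmented to 200–600 bp and ligated to adaptors (HiSeq 2000). Per the study's methods and the submitters' processing notes, reads were mapped to mm10 with TopHat2 (2.0.14) and Gencode M4 transcripts were quantified with Cufflinks (2.2.1). Cuffdiff combined the 2 samples of each condition, and the authors deposited 1 FPKM value per gene and condition. Columns of the authors' own calls were not used. Strand settings and the library normalization are not given in the sources used here.

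FPKM values were used as deposited, with Python (3.11.15), numpy (2.4.6), pandas (2.3.3) and matplotlib (3.10.9). The 17 comparisons took plain ratios without a pseudocount. Counts used genes whose higher value was 1 FPKM or more, and medians used genes that reach 10 FPKM in any condition. Without replicate values no test was run, and the depth is unknown. Only the ratio and counting steps were tested, on simulated data with known folds and no added noise. Gene positions, coding lengths and 50-base windows came from Gencode M21. Alternatives changed the scaling, the minimum, the pseudocount and the members included. Named members are the 3 highest and lowest by mean, the paralogs with their partners, Rpsa and the stalk genes, members past 2-fold in any comparison, the 3 largest and smallest ratios at 10 FPKM or more for 96 h, 0 h -dox and the dox pairs, and the 3 least correlated with the median profile. Rpl4, Rpl7a, Rpl35a, Rps18, Rps12, Rpl37a and Rps3a1 are named outside this rule, after their values were seen. The values of 1 member are not given by name here, though it is kept in all counts and medians. The rule for members uses symbols alone, but the rule and the lists were chosen with earlier results of these data known.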

Additional observations from a re-analysis of the deposited data

Results flagged for a closer look

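Rpl10l and Rpl39l changed direction between starts in the comparison of +dox to -dox. For Rpl10l the log2 ratio was 0.71 in cells from 48 h and -1.004 in cells from 96 h, and for Rpl39l it was 0.61 from 48 h and -1.04 from 96 h. These 4 ratios rest on values between 0.626 and 9.47 FPKM, 1 per condition, and the difference was not tested.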

How the results depend on the processing

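No paired analysis was possible because the table gives 1 value per condition, and for the same reason no replicate could be left out. No alternative turned the direction of a member median above 0.1 in size. Those of 24 h and 96 h -dox to their timepoints, within 0.1 of 0, turned with scaling. With equal summed FPKM, under which the scale of the conditions shifts by up to 0.465 (log2), the member median log2 ratio to 0 h was -0.24 (24 h), -0.16 (60 h), -0.25 (72 h) and -0.28 (96 h), and the members at least 20% lower numbered 27, 22, 36 and 34, with 2 at least 2-fold lower at 72 h and 2 at 96 h. The +dox to -dox medians were 0.10 from 0 h, 0.10 from 24 h and 0.34 from 96 h, and the members at least 25% higher 9, 1, 6 (from 48 h) and 44. For 0 h -dox to 0 h the median was -0.065 with 27 lower. For 24 h -dox to 24 h it was 0.11 with 6 lower (beside 26.8% of all genes). For 48 h -dox to 0 h -dox it was 0.0031 with 19 higher. This scaling shifts the other genes of a condition by the same amount, so the gap between members and other genes stayed. With equal summed FPKM of the non-members the medians were -0.30 (36 h), -0.39 (72 h), -0.40 (96 h), 0.15 for +dox from 0 h, -0.14 for 0 h -dox to 0 h, 0.14 for 24 h -dox to 24 h and 0.073 for 48 h -dox to 0 h -dox. With members of at least 600 coding bases, chosen after seeing the data, they were -0.52 at 72 h, -0.18 for 0 h -dox to 0 h, -0.17 for 96 h -dox to 96 h, and 0.059 and -0.51 for 48 h and 96 h -dox to 0 h -dox. The cause was not tested. Median-ratio factors shifted the scale of the conditions by at most 0.078 (log2), so they could not move a median by more than 0.1. A minimum of 1 or 100 FPKM, 1 FPKM added, and leaving out the paralogs (chosen after seeing the data) or members with short transcripts moved no median by more than 0.1. Of the counts of members, no minimum and a minimum of 10 FPKM moved none, in the direction of the median, by more than 1.5-fold, and the other settings were run on medians only. The table holds no mt- genes, so leaving them out changed nothing. Unknown depth limits the reading of Rpl3l and of the late values of Rpl10l and Rpl39l.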
